A study of Mus musculus with 2 samples.

Results

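The genes described here are the cyclins and the cyclin-dependent kinases (CDKs), 37 members taken by gene symbol and family name. Each symbol was matched to the array probes that carry exactly that name, and a member was represented by its brightest probe among those well above background on both arrays. All 37 members had such a probe, out of 20782 measured targets among 37072 named on the array. By their known roles, 14 members drive the cell cycle, 13 act mainly in transcription and 10 belong to neither class.

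RNA of mouse cells was measured on 2 arrays. The treated group, labelled S180, and the control group, labelled DMSO (a solvent), had 1 array each. The labels name no cell type, strain, genotype, dose or exposure time for either group, and do not say what S180 is. A single dye, Cy3, was read from 62976 spots per array. Since neither group has a replicate, no p-value can be given, and precision is bounded by having so few arrays.

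The share of non-control spots that the scanner software marked as well above background was 61.9% for S180 and 60.6% for DMSO. Since the labels give no cell type, marker genes were read instead. All 5 melanocyte markers were measured, with a summed processed intensity of 554700 with S180 and 595276 with DMSO, and differences of -0.0079 to 0.26 (log2). None of the 5 hepatocyte markers was measured, against 1 of 5 endothelial, 2 of 5 epithelial, 2 of 5 T cell, 3 of 5 B cell, 3 of 5 pluripotent cell, 4 of 5 macrophage and 4 of 5 neuron markers. The 5 fibroblast markers were all measured, with a summed intensity of 1407 with S180 and 2475 with DMSO. Their differences ran from -1.72 (Lum, a matrix proteoglycan) to -0.02 (Col1a1, a collagen chain). All these sums are of intensities before scaling between the arrays. Those of the measured neuron markers (10016.6 with S180 and 10554.5 with DMSO) and macrophage markers (5412 and 5610) were larger than the fibroblast sums. The part of fibroblasts in the differences given here was not tested. In RNA from a whole sample, fewer cells of a type and less RNA per cell cannot be told apart.

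A CDK is a protein kinase that in most cases is active only when bound to a cyclin, a subunit whose amount often swings through the cell cycle. D-type cyclins with Cdk4 and Cdk6 respond to growth signals in G1 and phosphorylate the retinoblastoma protein, which frees E2F factors. E-type cyclins with Cdk2 then start DNA replication, and A- and B-type cyclins with Cdk1 and Cdk2 carry the cell through S phase, G2 and mitosis. A separate branch of the family, among them cyclins C, H, K and T with Cdk7, Cdk8, Cdk9, Cdk12 and Cdk13, acts on RNA polymerase II and the Mediator complex and is not periodic in the same way.

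A level is the log2 processed intensity of a probe minus the 75th percentile of its array, which was 9.27 with S180 and 9.55 with DMSO. A difference is the S180 level minus the DMSO level, and the median over all measured genes was 0.0043. Levels of different probes depend on the probe and are not set against each other. The error available is technical. When the measured genes were split by signal into 3 groups of nearly equal size, the SD of a difference between single spots was 0.034 over 260 replicated probes of the bright group. It was 0.065 over 6 probes at middle signal and 0.26 over 10 dim ones. The SD between the 2 brightest probes of a gene was larger, at 0.14, 0.18 and 0.27 from bright to dim. Of the members, 21 were bright, 13 middle and 3 dim, the dim ones being Ccna1, Ccne2 and Ccnj.

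The S180 and DMSO arrays differed little in most members, and 2 cyclins stood out as higher in S180. Ccng2, an atypical cyclin that is linked to growth arrest rather than division, was 1.89-fold higher, and Ccnd1, cyclin D1, was 1.73-fold higher. The other 35 members were all within 1.5-fold, from a difference of -0.32 for Ccnl2, Cdk1 and Cdk17 to 0.45 for Ccnd2. S180 was at least 1.5-fold above DMSO in 2 of 37 members (5.41%), against 3.08% of all measured genes, and 0 were at least 1.5-fold lower, against 1.71%. Both shares lie near the background, and nothing about the family can be read from them. Among the 21 bright members 1 was higher and 0 were lower, against 1.66% and 0.101% of the 6928 bright genes. At a lower threshold of 0.322 on the log2 scale, 3 members were higher (Ccnd2 added) and 2 were lower (Cdk1 and Ccnl2), against 11.6% and 8.04% of all genes. No member reached 2-fold, which 0.582% of all genes did in the higher and 0.168% in the lower direction. The median member lay at -0.08, and 24 of the 37 were below the median gene.

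**Figure D1:**
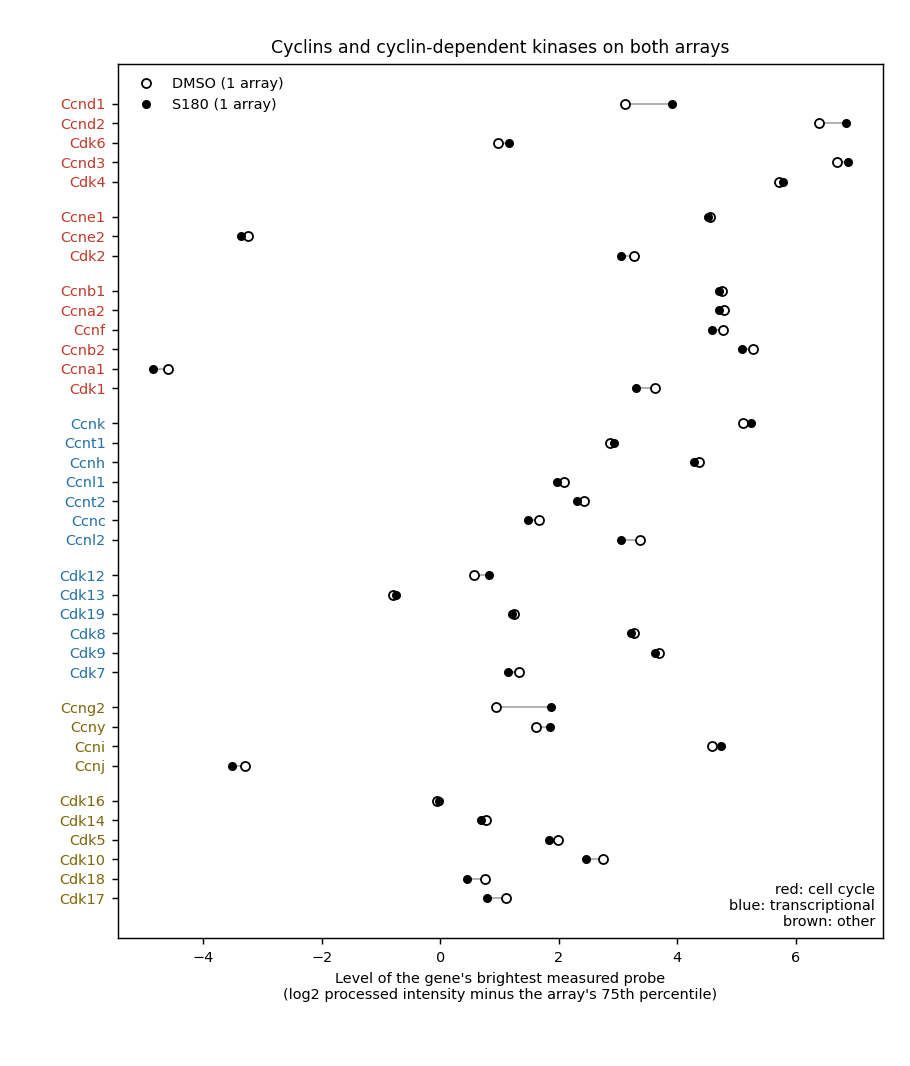
Levels of each member's brightest measured probe on the DMSO array (open circles) and the S180 array (filled circles), in log2 units relative to the 75th percentile of the array, grouped by role; each circle is 1 array. The lines between the circles are longest for Ccng2 (0.94 in DMSO, 1.86 in S180) and Ccnd1 (3.12 and 3.91); circles are to be compared within a gene only.

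These calls rest on the assumption that most genes were equal between the arrays. When the arrays were instead scaled on 8 spike-in transcripts added at known amounts, the median gene lay at -0.35, and no member was 1.5-fold higher: Ccng2 was at 0.57 and Ccnd1 at 0.44. On that scale 7 members were at least 1.5-fold lower (Ccna1, Ccnj, Ccnl2, Cdk1, Cdk10, Cdk17 and Cdk18), against 14.3% of all genes, and 0.703% of all genes were higher. With no scaling at all the median gene lay at -0.28, with 1 member higher (Ccng2) and 4 lower, against 0.967% and 9.01% of all genes. All differences below are therefore relative to the bulk of the genes.

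Among the G1 members, Ccnd1 and Ccnd2 had the highest values, while Cdk6 and Ccnd3 were close to each other and Cdk4 lay nearest the median gene. The probe of Ccnd1, the cyclin most directly tied to mitogen signals, had a level of 3.91 with S180 and 3.12 with DMSO, a difference of 0.79. It is the only Ccnd1 probe on the array and covers bases 152116202 to 152116261 of chromosome 7 (probe positions are on build mm9 throughout). This gap was many times the spot error of bright probes, and 98.7% of all measured genes had a lower difference. Spot error holds no variation between samples, which 1 array per group cannot show. The SD between 2 probes of a bright gene was larger, at 0.14. Ccnd2, cyclin D2, had levels of 6.85 and 6.39, a difference of 0.45 or 1.37-fold, and its 3 probes gave 0.45, 0.49 and 0.53. The brightest covers bases 127080268 to 127080327 of chromosome 6. Ccnd3, cyclin D3, had levels of 6.88 and 6.69, a difference of 0.19, and its 3 probes ranged from 0.13 to 0.41. The highest of them was the dimmest, with intensities of 3299 and 3009. All 7 probes of the D-type cyclins were above 0, and only that of Ccnd1 passed 1.5-fold.

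The brightest genes as a group drifted upwards in S180, which bears on these cyclins. Among the 500 genes nearest to Ccnd2 in signal the median difference was 0.12 and the central 90% ran from -0.08 to 0.35, so that Ccnd2 lay above that range by a small margin. Around Ccnd3 the median was 0.13 and the range -0.06 to 0.35, and Ccnd3 lay 0.06 above the median and inside it. Around Ccnd1 the median was -0.02 and the range -0.24 to 0.32. Ccnd1 thus exceeded genes of like signal by 0.82.

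Cdk4, a kinase partner of the D-type cyclins, had levels of 5.79 and 5.71, a difference of 0.08 that equalled the drift of like genes (0.07). Its 4 probes spread from -0.17 to 0.08, with 1 of 4 above 0. Cdk6, the other partner, had levels of 1.17 and 0.97, a difference of 0.20, and its 3 probes gave 0.16 to 0.25. Genes of like signal ran from -0.34 to 0.38 around Cdk6, and Cdk6 lay inside that range.

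**Figure D2:**
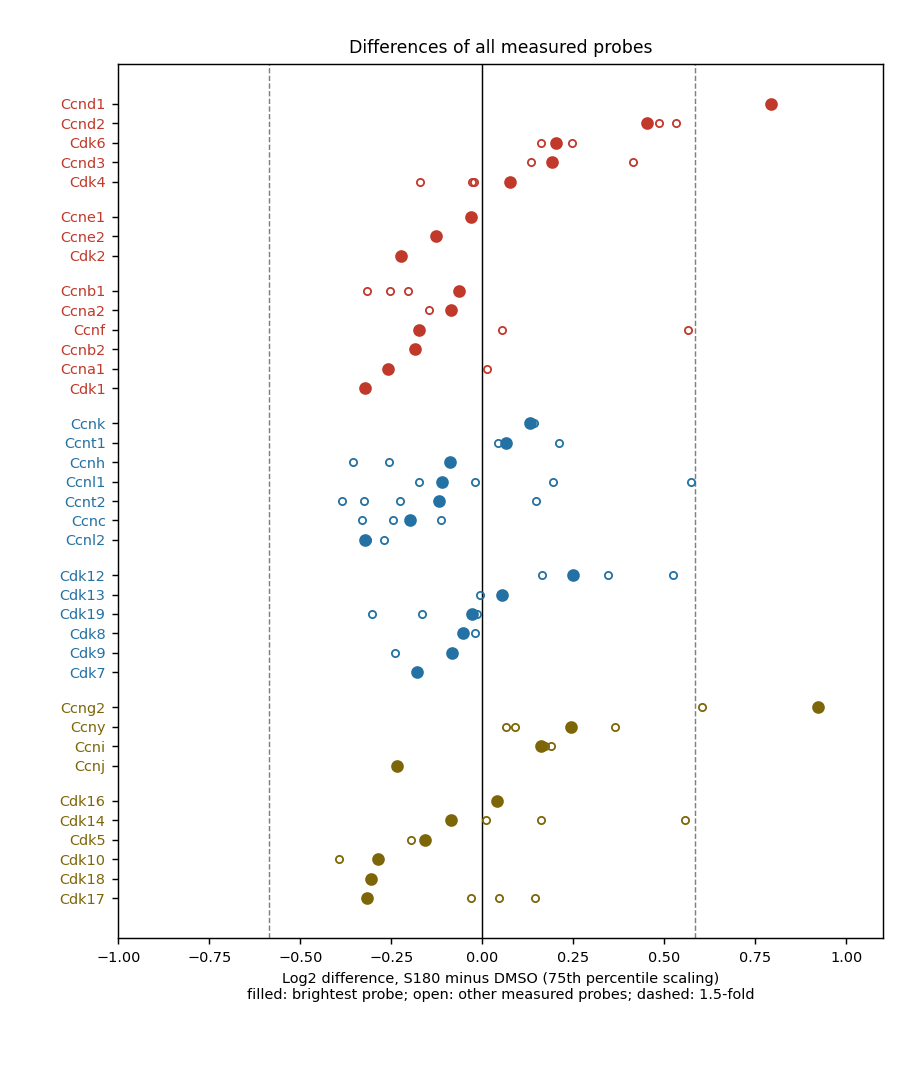
Log2 differences (S180 minus DMSO) of every measured probe of the 37 members, grouped by role; filled circles are the brightest probe, open circles the other probes, and dashed lines mark 1.5-fold. All 7 probes of the D-type cyclins lie above 0, all brightest probes of the S phase, G2 and mitosis group lie below 0, and 3 probes pass 1.5-fold, 1 of Ccnd1 and 2 of Ccng2.

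The members that act at entry into S phase lay slightly below the median gene. Ccne1, cyclin E1, had levels of 4.52 in S180 and 4.55 in DMSO, a difference of -0.03 that is within the spot error. Ccne2, cyclin E2, was dim, with intensities of 59.6 and 79.1 and a difference of -0.13, which normexp background correction turned to 0.02. Cdk2, the kinase that both cyclins activate, had levels of 3.05 and 3.27, a difference of -0.22. Each of these 3 genes was measured by a single probe. The listed position of the Ccne1 probe covers only 24 bases, against a probe length of 60, and what this does to its value was not tested.

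Among the cyclins and the kinase of S phase, G2 and mitosis, all 6 members lay below the median gene and none by 1.5-fold. Cdk1, the kinase that drives mitosis, had the lowest value, with levels of 3.31 in S180 and 3.63 in DMSO, a difference of -0.32. Its only probe spans an intron on chromosome 10 between 68805423 and 68807832. Genes of like signal had a median of -0.03 and ran from -0.25 to 0.29, so that Cdk1 lay just below that range. Ccnb2, cyclin B2, had levels of 5.10 and 5.28, a difference of -0.18, also just below the range of like genes (-0.17 to 0.34). Ccnb1, cyclin B1, had levels of 4.70 and 4.77, a difference of -0.06, but its other 3 probes were lower, from -0.32 to -0.20. Ccna2, cyclin A2, which acts in S phase and G2, gave -0.08 and -0.15 with its 2 probes. Ccnf, an F-box cyclin that marks proteins for degradation, gave -0.17 with its brightest probe, but 0.05 and 0.56 with dimmer ones. The last had intensities of 56.4 and 46.3 only, and the mean of the 3 probes was 0.15. Ccna1, the cyclin A known from the germ line, was near background at intensities of 21.3 and 31.0. Its difference was -0.26 with 1 probe and 0.01 with the other, and it turned to 0.11 with normexp. Of the 13 measured probes of these 6 genes, 10 were below 0, with a median of -0.17.

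Genes of this late phase are known to carry a shared promoter layout, with CCAAT boxes bound by NF-Y and a cell cycle homology region (CHR) bound by the DREAM and MuvB complexes. The 250 bases before the annotated start are therefore shown for the 4 of them that lay together below the median gene, had a bright probe and were listed in the RefSeq promoter table (GRCm38.p6, given for 28 of 37 members), together with Cdk4, whose value equalled that of like genes. Each runs 5′ to 3′ on the strand of its gene. In the first 4, capitals mark CCAAT, the CHR letters TTTGAA or the E2F letters TTTGGCGC, TTTCGCGC, TTTCCCGC or TTTGCCGC, each on either strand, so that ATTGG is a CCAAT box on the other strand. In Cdk4 capitals mark the E-box CACGTG, which MYC and related factors bind. The windows are chr10:69352913-69353162 (minus strand) for Cdk1, chr13:100786487-100786736 (minus) for Ccnb1, chr9:70421555-70421804 (minus) for Ccnb2, chr17:24251410-24251659 (minus) for Ccnf and chr10:127063285-127063534 (plus) for Cdk4.
Cdk1: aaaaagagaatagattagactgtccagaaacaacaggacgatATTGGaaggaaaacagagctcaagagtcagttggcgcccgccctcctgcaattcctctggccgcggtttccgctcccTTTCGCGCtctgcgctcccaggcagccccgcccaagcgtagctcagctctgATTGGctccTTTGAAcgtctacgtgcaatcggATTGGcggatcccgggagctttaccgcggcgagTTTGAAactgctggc
Ccnb1: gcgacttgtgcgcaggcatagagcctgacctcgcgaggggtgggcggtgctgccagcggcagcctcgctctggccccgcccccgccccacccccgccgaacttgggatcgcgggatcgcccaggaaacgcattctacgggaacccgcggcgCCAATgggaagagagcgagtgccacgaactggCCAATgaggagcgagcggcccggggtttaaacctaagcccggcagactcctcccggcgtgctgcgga
Ccnb2: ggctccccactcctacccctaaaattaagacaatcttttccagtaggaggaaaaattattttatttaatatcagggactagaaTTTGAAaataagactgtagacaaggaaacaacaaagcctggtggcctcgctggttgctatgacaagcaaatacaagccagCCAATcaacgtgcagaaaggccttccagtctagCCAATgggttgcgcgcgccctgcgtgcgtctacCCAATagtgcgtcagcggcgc
Ccnf: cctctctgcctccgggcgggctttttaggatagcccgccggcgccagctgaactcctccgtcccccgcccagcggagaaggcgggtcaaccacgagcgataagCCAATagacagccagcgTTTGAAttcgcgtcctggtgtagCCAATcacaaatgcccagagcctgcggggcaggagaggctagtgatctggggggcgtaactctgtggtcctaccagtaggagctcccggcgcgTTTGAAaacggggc
Cdk4: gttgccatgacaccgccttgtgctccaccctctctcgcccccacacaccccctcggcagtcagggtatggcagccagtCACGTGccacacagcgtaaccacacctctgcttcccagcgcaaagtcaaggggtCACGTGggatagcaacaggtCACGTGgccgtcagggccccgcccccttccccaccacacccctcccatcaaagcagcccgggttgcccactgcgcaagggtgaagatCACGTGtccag

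The windows of Cdk1 and Ccnb2 held 3 CCAAT boxes each and those of Ccnb1 and Ccnf 2 each. CHR letters were found in Cdk1 (2 matches, the nearer one starting 15 bases before the start), Ccnf (2 matches, the nearer one at 14 bases) and Ccnb2 (1 match at 167 bases), and not in the window of Ccnb1. The Ccnb2 match lay farther from the start than all its CCAAT boxes (at 87, 54 and 21 bases). The nearer matches of Cdk1 and Ccnf lay closer to the start than all of theirs. Only TTTGAA was searched for the CHR, and the window ends at the annotated start. Other forms of the CHR, or matches past the start, would be missed. Of the 5 listed members of the late phase, Ccna1 included, 5 held a CCAAT box and 3 held CHR letters at any position in the window. Among all 32851 listed promoters, 33.8% held a CCAAT box, 16.0% CHR letters and 5.55% both. Of the 11 listed transcriptional members, 5 held a CCAAT box and 0 held CHR letters. Of the 7 listed members of neither class, 4 held a CCAAT box and 2 held CHR letters. Those 2 were Ccni and Cdk16, whose differences were above 0 (0.16 and 0.04), so that the letters were not limited to members below the median gene. E2F letters, in 1.86% of all promoters, occurred in Cdk1 and Cdk2 among the 28 listed members. The 4 E-boxes of Cdk4 compare with 2 or more in 0.429% of all promoters and at least 1 in 6.02%, and Cdk6, Cdk7, Cdk8 and Cdk18 held 1 each. Such matches describe the letters in the window and do not show that a factor was bound.

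**Figure D3:**
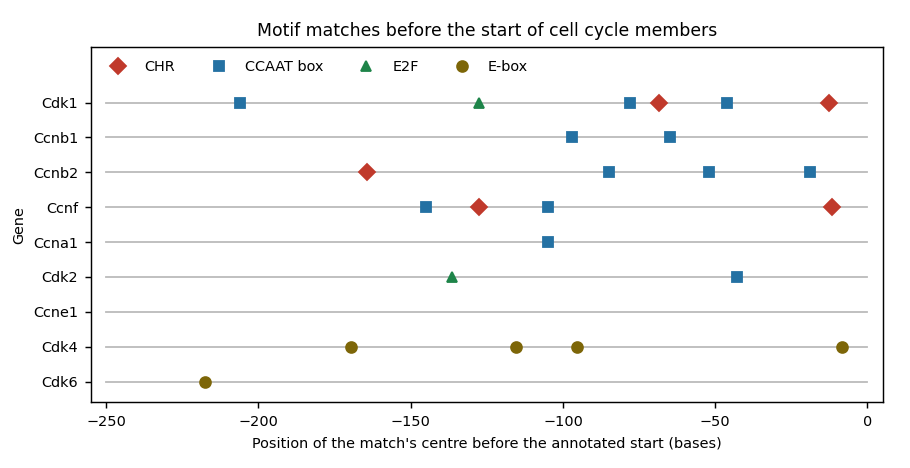
Positions of CHR, CCAAT box, E2F and E-box letters in the 250 bases before the annotated start of 9 cell cycle members with a listed promoter (Ccnd3, with 2 listed starts, is left out); the horizontal axis gives the centre of each match in bases, with the start at 0. Cdk1, Ccnb1, Ccnb2 and Ccnf each hold 2 or 3 CCAAT boxes, and Cdk4 holds 4 E-boxes.

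Within the cell cycle class, the phases lay on different sides of the median gene on the brightest probes under the main processing. The 5 G1 members had a median of 0.20 and all lay above the median gene, whereas the 3 S phase entry members had a median of -0.13 and the 6 late members one of -0.18, and all 9 lay below it. The highest of the 9 was Ccne1 at -0.03, and the lowest of the 5 was Cdk4 at 0.08. The groups thus did not overlap on the brightest probes under the main processing. Over all measured probes they did overlap, since 3 of 14 G1 probes were below 0 and 3 of 13 late probes above it. With normexp they overlapped as well, with Ccna1 (near background) at 0.11 and Cdk4 at 0.04. With the mean of all probes of a gene, Ccnf was at 0.15 and Cdk4 at -0.04. The phase groups were set with earlier results of these data known. Set against genes of like signal, the 5 G1 members lay 0.01 to 0.82 above and the 9 others -0.33 to -0.04 from them. The 9 members are 9 genes on the same pair of arrays and not replicates, and no test was possible.

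For the transcriptional members the values were small, with 11 of 13 within 0.2 of no difference and none past 1.5-fold. Ccnl2, cyclin L2, a partner of Cdk11 in pre-mRNA splicing, had the lowest value of the family, with levels of 3.05 in S180 and 3.38 in DMSO and a difference of -0.32. Its 3 measured probes agreed closely, at -0.32, -0.32 and -0.27, and genes of like signal ran from -0.27 to 0.30. The brightest covers bases 155198073 to 155198132 of chromosome 4. Its paralog Ccnl1 gave -0.11, with 5 probes from -0.17 to 0.57. The highest value again came from the dimmest probe, at intensities of 87.2 and 71.2.

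The kinase and cyclin of the CDK-activating complex within TFIIH, Cdk7 and Ccnh, gave -0.18 and -0.09, and the 4 Ccnh probes ran from -0.36 to -0.09. Of the Mediator kinase module, Ccnc gave -0.20 with 4 probes from -0.33 to -0.11, and its kinases Cdk8 and Cdk19 gave -0.05 and -0.03. P-TEFb, the complex that releases paused polymerase, is made of Cdk9 with a T-type cyclin. Cdk9 was at -0.08 and Ccnt1 at 0.07, while Ccnt2 was at -0.12 with 5 probes from -0.39 to 0.15. Ccnk, the partner of the elongation kinases Cdk12 and Cdk13, had levels of 5.24 and 5.11, a difference of 0.13, and its other probe gave 0.14. Cdk12, which sustains the expression of long DNA repair genes, had the highest value of this class, 0.25, with levels of 0.82 and 0.57 and all 4 probes between 0.16 and 0.52. Genes of like signal ran from -0.36 to 0.36 around Cdk12. Its paralog Cdk13 was at 0.05.

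The comparison of the cell cycle with the transcriptional class showed no separation. The median of the 14 cell cycle members was -0.07 and that of the 13 transcriptional members -0.08, a gap of 0.0083. In both classes 9 members lay below the median gene. The cell cycle values were more spread, from -0.32 to 0.79, against -0.32 to 0.25. Without the 3 D-type cyclins the gap was -0.04, a split made after the values were seen.

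**Figure D4:**
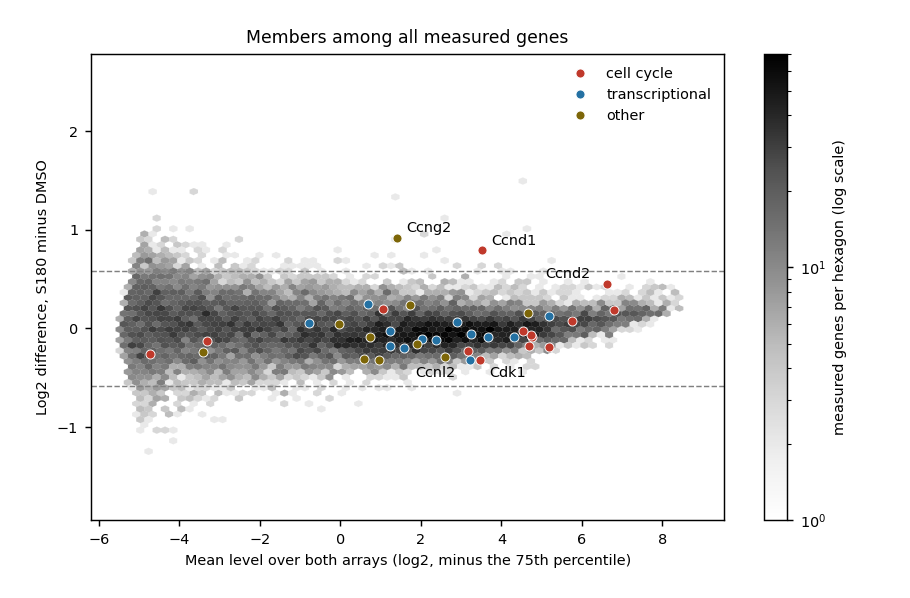
Log2 difference (S180 minus DMSO) against the mean level of both arrays (log2, relative to the 75th percentile) for all 20782 measured genes, shown as grey hexagons by number, with the 37 members as coloured points and dashed lines at 1.5-fold. Ccng2 and Ccnd1 lie above the upper line, Ccnd2 lies above the rising band of the brightest genes, and all other members lie between the dashed lines.

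The 10 members of neither class held the largest difference of the family. Ccng2 had a level of 1.86 with S180 and 0.94 with DMSO, a difference of 0.92, and 99.2% of all measured genes had a lower one. The brightest probe covers bases 93704874 to 93704933 of chromosome 5, and the other one, at intensities of 67.9 and 54.3, gave 0.60, so that both passed 1.5-fold. Genes of like signal ran from -0.33 to 0.38. The Ccng2 promoter window held none of the letters searched. Besides those above, these were GTAAACA (FOXO, in 3.17% of all promoters) and ACGTG (a form of the core bound by HIF, part of the E-box, in 16.6%). Other forms of the HIF core were not searched. Among the 28 listed members, FOXO letters occurred in 2 (Ccnd3 and Ccni) and HIF letters in 10. Ccnd1 and Ccnd2 had no listed promoter.

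Of the other atypical cyclins, Ccny, a membrane-bound cyclin, was at 0.24 with 4 probes from 0.07 to 0.36. Ccni was at 0.16 with 3 probes from 0.16 to 0.19. Ccnj was dim, at -0.23, and moved to -0.0080 with normexp. Among the kinases of this class 5 of 6 lay below the median gene. Cdk17 and Cdk18, of the PCTAIRE group, were at -0.32 and -0.30, and the third of that group, Cdk16, was at 0.04. The other 3 Cdk17 probes gave -0.03 to 0.14, so that the value of Cdk17 rests on its brightest probe, while Cdk18 has a single one. Cdk10, which pairs with cyclin M, was at -0.29, and its second probe at -0.39. Cdk5, best known from neurons, was at -0.16 and -0.20. Cdk14, a partner of Ccny, was at -0.08, with 3 dimmer probes between 0.01 and 0.56.

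Cyclins and their own kinases were set side by side in 21 known pairs, which share members and are therefore not independent. In the cell cycle the cyclin had the higher difference in 11 of 12 pairs, from 0.72 for Ccnd1 over Cdk4 to 0.10 for Ccne2 over Cdk2. The exception was Ccnd3 against Cdk6 at -0.01. These 12 pairs draw on only 4 kinases, of which Cdk1 and Cdk2 had 1 probe each. Ccna1, near background, was not among the pairs. Its difference of -0.26 lay above that of Cdk1 (-0.32) and below that of Cdk2 (-0.22). In transcription the cyclin had the higher value in 3 of 7 pairs, within -0.17 and 0.15. Both pairs of Ccny were positive, at 0.33 with Cdk14 and 0.20 with Cdk16.

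Lists of genes around the CDKs gave mostly small values. The E2F and retinoblastoma family had a median of -0.0043 over 13 of 13 measured genes with 0 past 1.5-fold, from -0.36 for Rbl1 (p107) to 0.26 for E2f2. The regulators of CDKs (phosphatases, kinases, small subunits and destruction factors) had a median of -0.12 over 14 of 14 genes, again with 0 past 1.5-fold. They ran from -0.41 for Cdc20, which activates the anaphase-promoting complex, to 0.12 for Wee1, the kinase that holds Cdk1 inactive. The partners of transcriptional CDKs had a median of -0.09 over 13 of 13 genes and 0 past 1.5-fold, from -0.38 for Ercc2, a TFIIH helicase, to 0.13 for Polr2a. Of the CDK inhibitors 5 of 7 were measured (all but Cdkn2a and Cdkn2b), with a median of 0.21, and 1 of 5 was past 1.5-fold. That was Cdkn1a (p21), at intensities of 9814 in S180 and 5136 in DMSO, 2.32-fold higher on its brightest probe with 0.33 to 1.83 (log2) over 3 probes.

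Agreement between probes of a member sets how firmly its sign can be read. The 37 members had 100 probes, of which 95 were measured, and 27 members had more than 1. In 19 of these 27 all probes had the same sign, and the median range over the probes of a member was 0.25. Across 6 ways of processing that keep most genes level, 31 of 37 members kept their sign, and the exceptions were Ccna1, Ccne2, Ccnf, Ccnl1, Cdk4 and Cdk14. Quantile normalization and the deposited value table are both among the 6 and gave nearly the same values.

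**Figure D5:**
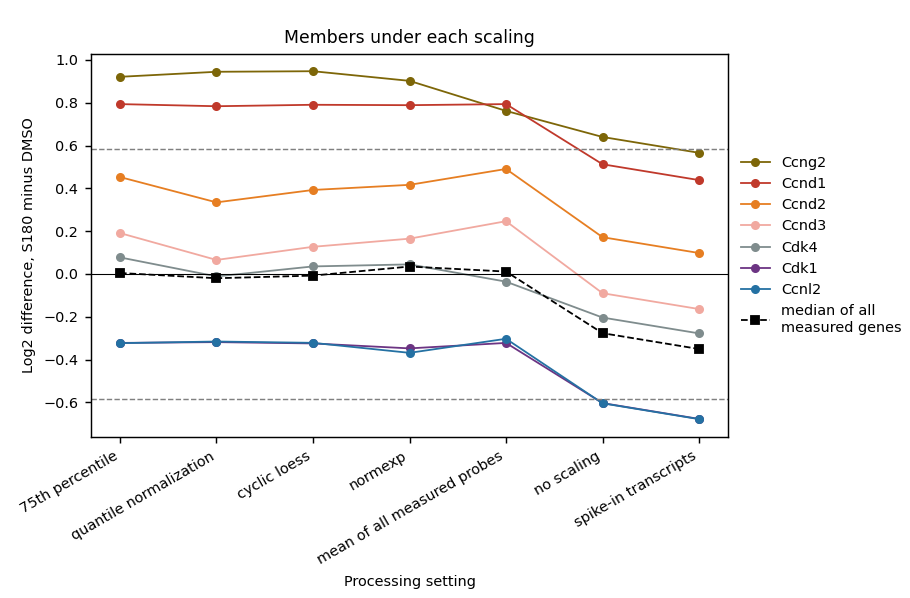
Log2 differences (S180 minus DMSO) of 7 members and the median of all measured genes (black squares) under 7 processing settings, with dashed lines at 1.5-fold. Ccng2 and Ccnd1 pass 1.5-fold under the first 5 settings and both fall short of it on the spike-in scale (0.57 and 0.44), where the median gene lies at -0.35.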

How the data were processed

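Scanner tables of both arrays were deposited with spot intensities on a linear scale, written by Agilent Feature Extraction 10.7.1.1, per the file headers and the submitters' processing notes. Processed intensities were background-subtracted and detrended within the array, with surrogates for dim spots, per the file headers. A value table of both arrays was also deposited, in log2 units; how it was normalized is not stated. It was within 0.01 of quantile-normalised log2 processed intensities for 99.97% of probes, which settles its scale and direction, and each column had a median of 5.28.

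Control spots and outlier spots (120 on the S180 array, 195 on the DMSO array) were left out, log2 intensities were averaged per probe, and the 75th percentile of each array was subtracted (R 4.3.3, limma 3.58.1, Python 3.11.15). No spot was saturated. Genes carry the names in the files. The gene is its brightest probe that was well above background on both arrays. Calls are differences of at least 1.5-fold. The code was tested on simulated data. Members, classes and lists were chosen with earlier results of these data known. The comparison with genes of like signal was added after seeing the data. The rule let all 37 members be named, and companion genes by the largest difference in each direction and those past 1.5-fold. Alternatives covered scaling, normexp correction (offset 50), the deposited table, the probe of a gene, dim probes, classes and fold thresholds. Promoters came from the RefSeq table of GRCm38.p6. Exon and UTR annotation was not used here.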

Additional observations from a re-analysis of the deposited data

How the results depend on the processing

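Under quantile normalization, cyclic loess, scaling on the median gene, normexp, the authors' value table, averaging over probes, no filter on dim probes and genes above the median signal, 2 members were at least 1.5-fold higher and 0 lower, as in the report. The genes above the median signal held 32 of the members. Dropping the filter on dim probes changed no member's value, and the authors' table nearly equals quantile normalization, so these are not separate checks. Without scaling 1 member was higher and 4 were lower (Ccnl2, Cdk1, Cdk17 and Cdk18). On the spike-in scale 0 were higher and 7 lower. The median gene lay at -0.28 without scaling and at -0.35 on the spike-in scale, and the cause was not tested. With a 2-fold threshold 0 members were higher. At 0.322 on the log2 scale 3 were higher and 2 lower. The gap between the cell cycle and the transcriptional medians was 0.091 with normexp and 0.071 with means in place of medians, and the cause was not tested. It was -0.02 without Cdk7 and Ccnh, 0.01 with the other members added to the transcriptional class and 0.04 without Ccna1 and Ccne2, the last chosen after seeing the data. Signals near background limit Ccna1, Ccne2 and Ccnj. No paired analysis was possible because each group has 1 sample.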

Other observations

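The differences of markers of proliferating cells lay close to that of the median gene. Mki67, the Ki-67 antigen, differed by -0.10 (log2, S180 minus DMSO), Mcm2, of the replicative helicase, by -0.08 and Top2a, a topoisomerase of dividing cells, by -0.02. Pcna, the replication clamp, differed by 0.03 and Mcm6 by 0.04. Their intensities were between 13134 and 58631 on the S180 array. Cks2, a small subunit that binds Cdk1, was at -0.31, and its paralog Cks1b at 0.07. The phosphatase genes Cdc25b and Cdc25c, which activate Cdk1, were at -0.28 and -0.27, while Cdc25a, which acts earlier in the cycle, was at -0.0019. These last 5 genes were chosen after their values were seen.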
